A study of Mus musculus with 6 samples.

Results

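The CCN matricellular genes Ccn1, Ccn2, Ccn3, Ccn4 and Ccn5 and the YAP target genes Ankrd1, Amotl2, Ajuba, Axl and Crim1 were examined in RNA-seq of C2C12 cells, a line of mouse myoblasts that can fuse into muscle fibers. These 10 genes were taken by their symbols from the deposited table of 22375 rows, each symbol matched 1 row, and the choice of genes was made with earlier results of these data known. The study asks how mechanical stress on muscle leads to fibrosis, and the RNA-seq compares 3 libraries of unstretched cells (the CON group) with 3 libraries of cells under cyclic loading at 15% elongation for 4 h (the 4H group). All cells came from the same line and were cultured in DMEM with fetal bovine serum, and the stretched cells were seeded on elastic plates coated with poly-lysine. The study does not say on which plates the CON cells grew. If these differed, stretch and plate cannot be told apart. The labels call the libraries replicate biosamples without saying that they came from separate cultures, so p-values measure the spread between these libraries, which may be technical. Levels are FPKM, fragments scaled to transcript length and to the mapped fragments of a library, so levels of different genes can be compared per length, but the number of fragments behind a value is unknown.

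CCN proteins are secreted into the extracellular matrix, where they bind integrins and heparan sulfate proteoglycans and modulate growth factor signals rather than serve as structural fibers. Ccn1 and Ccn2 are transcribed within hours of a rise in cell tension through YAP and TAZ, transcriptional coactivators that the Hippo kinases keep out of the nucleus and that bind DNA through TEAD factors. CCN2, also called connective tissue growth factor, is a well-known mediator of muscle fibrosis downstream of TGF-beta. The other YAP targets act at several places, with ANKRD1 in the nucleus and the sarcomere, AMOTL2 and AJUBA as regulators of the Hippo pathway itself, AXL as a receptor kinase and CRIM1 as a membrane protein that binds BMPs.

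Since TEAD factors recognise the hexamer CATTCC, the bases before the transcription start were searched for it on both strands, where it reads GGAATG on the opposite strand. RefSeq start windows (GRCm38.p6) were matched for 6 of the 10 genes, Ccn1, Ankrd1, Amotl2, Ajuba, Axl and Crim1, and not for Ccn2, Ccn3, Ccn4 and Ccn5. The hexamer lay within the 250 bases before the RefSeq start in all 6 of these genes, and in 12.64% of the 32851 windows of all genes. These genes are known as YAP targets, so its presence describes them and is no test of TEAD binding. The stretches that hold it are printed 5′ to 3′ on the strand of the gene, with the hexamer in capitals, to show what the genes that changed and those that did not have in common. Those of Ankrd1 and Amotl2 lie in exons of longer GENCODE transcripts and are cut to 30 bases. The positions depend on the annotation. GENCODE places the outermost start of Ajuba at base 54577558 and of Axl at base 25788705, against 54577661 and 25788733 in RefSeq. Counted from these GENCODE starts, the hexamers of both genes lie outside the 250 bases.
Ccn1, minus strand, chr3:145650053-145650118: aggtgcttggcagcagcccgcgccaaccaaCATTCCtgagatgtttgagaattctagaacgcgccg
Ankrd1, minus strand, chr19:36120037-36120066: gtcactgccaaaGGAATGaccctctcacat
Ankrd1, minus strand, chr19:36119950-36119979: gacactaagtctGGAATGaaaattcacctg
Amotl2, plus strand, chr9:102717727-102717756: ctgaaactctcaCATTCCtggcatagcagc
Ajuba, minus strand, chr14:54577790-54577877: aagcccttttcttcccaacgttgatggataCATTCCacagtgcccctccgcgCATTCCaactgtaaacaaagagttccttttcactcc
Axl, minus strand, chr7:25788931-25788983: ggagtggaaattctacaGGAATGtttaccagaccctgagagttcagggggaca
Crim1, plus strand, chr17:78200139-78200204: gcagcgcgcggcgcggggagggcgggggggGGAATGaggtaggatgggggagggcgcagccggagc

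Counted back from the RefSeq start, the hexamer began at base -103 in Ccn1, at -210 and -123 in Ankrd1, at -65 in Amotl2, at -186 and -164 in Ajuba, at -233 in Axl and at -79 in Crim1. It was not in the window of Ccn6, the family member outside the 10 genes. The AP-1 heptamer TGACTCA, searched on both strands, was in 0 of the 6 windows and in 4.46% of all windows, and the CArG box of SRF was in 0 of the 6 and in 1.47% of all windows. These counts say only that the letters are not in these 250 bases.

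**Figure D1:**
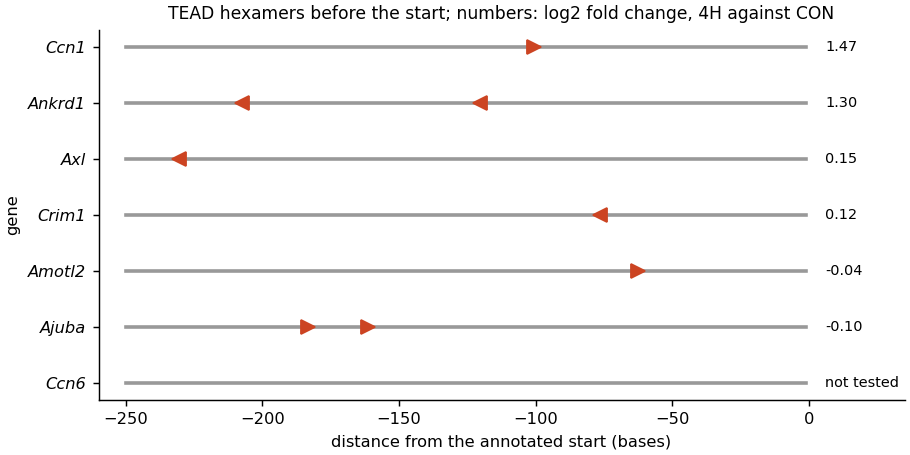
Positions of the TEAD hexamer in the 250 bases before the RefSeq start (horizontal axis, bases from the start) of the 6 genes with a window and of Ccn6. Triangles that point right mark CATTCC on the strand of the gene and those that point left its reverse complement, and the number beside each line is the log2 fold change of 4H against CON, so that the genes with 2 hexamers, Ankrd1 and Ajuba, can be seen to have changes of 1.30 and -0.10.

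Stretch was followed by a strong rise of a few of these genes, a fall of Ccn3 and small or no called changes in the others. Ccn2, Ccn1 and Ankrd1 were 6.70, 2.78 and 2.46 times as high in the 4H group as in the CON group, as ratios of mean FPKM. Axl was 1.11 times as high, Ccn3 fell to 0.554 of its CON level, and Ccn4, Amotl2, Ajuba and Crim1 did not pass the test. In bulk RNA, a change in the level per cell and in the share of cells that express a gene cannot be told apart. For the test, limma was run on log2(FPKM + 0.5) for all 11593 genes whose mean over the 6 libraries reached 0.5 FPKM. This filter passed 9 of the 10 genes, all 9 of them with a mean above it in both groups, and left out Ccn5. A gene was called at an adjusted p of at most 0.05 and differentially expressed if its log2 fold change was also at least 1 in size. Of the 9 genes, 4 were called higher (44.4%) where 22.6% of all genes tested were, and 1 was called lower (11.1%) where 24.1% were. Ccn1, Ccn2 and Ankrd1, 3 of the 9 (33.3%), were differentially expressed and higher, against 2.61% of all genes tested. The libraries of the groups did not overlap, with 4H higher, in 5 of the 9 genes, against 27.5% of all genes tested, and with 4H lower in 1, against 29.2%. The median log2 fold change was 0.12 for the 9 genes and -0.01 for all genes tested.

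**Figure D2:**
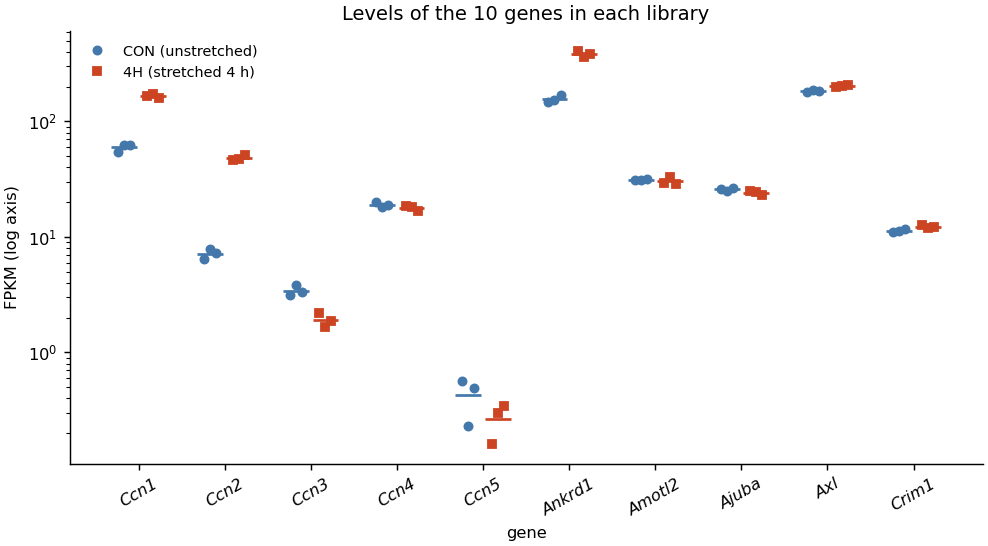
FPKM (vertical log axis) of the 10 genes in the 3 CON libraries (circles) and the 3 4H libraries (squares), with a line at each group mean. The 4H libraries of Ccn1, Ccn2 and Ankrd1 lie far above their CON libraries, while those of Ccn4, Ccn5, Amotl2 and Ajuba overlap with theirs.

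Ccn2 (ENSMUSG00000019997, chr10:24595442-24598683, plus strand of GRCm38) showed the largest change of the 10 genes. It was at 6.46, 7.88 and 7.21 FPKM in CON replicates 1, 2 and 3, against 46.0, 47.0 and 51.2 FPKM in 4H replicates 1, 2 and 3. The lowest 4H library was thus several times above the highest CON library. The log2 fold change was 2.66 (95% confidence interval 2.49 to 2.84, adjusted p = 1.22e-07 from limma), the rank 6 rise of the 11593 genes tested. In the CON group 34.7% of the genes tested had a lower mean FPKM than Ccn2, and in the 4H group 87.3% had. An exon of Ccn2 overlaps with the annotated gene Gm15270 on the other strand, for which no level was found under its symbol. Whether its reads entered the FPKM of Ccn2 was not tested.

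Ccn1 (ENSMUSG00000028195, chr3:145646976-145649981, minus strand), which encodes the protein first named CYR61, was the more abundant of the pair in both groups. It was at 53.9, 62.7 and 62.1 FPKM in CON replicates 1, 2 and 3, against 164.7, 171.8 and 160.7 FPKM in 4H replicates 1, 2 and 3. CON replicate 1 was the lowest of all, and the groups were far apart. The log2 fold change was 1.47 (95% confidence interval 1.34 to 1.61, adjusted p = 6.90e-07 from limma), at rank 112 of the rises. The rise was thus smaller than that of Ccn2, and the ratio of Ccn2 to Ccn1 went from 0.120 ± 0.0048 in the CON group to 0.291 ± 0.0246 in the 4H group (SD, n = 3 each; two-sided exact permutation test, p = 0.1, the smallest that 3 libraries against 3 allow).

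Ccn3 (ENSMUSG00000037362, chr15:54745702-54754039), formerly Nov, encodes a family member that in several cell types acts against CCN2. It was at 3.14, 3.84 and 3.32 FPKM in CON replicates 1, 2 and 3, against 2.17, 1.66 and 1.88 FPKM in 4H replicates 1, 2 and 3. All 4H libraries were below all CON libraries. Its log2 fold change of -0.71 (95% confidence interval -0.98 to -0.45, limma adjusted p = 0.00131) was called lower but did not reach the threshold of differential expression.

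Ccn4 (ENSMUSG00000005124, chr15:66891320-66923201), known as a Wnt-induced gene, was at 19.9, 18.2 and 18.9 FPKM in CON replicates 1, 2 and 3, against 18.6, 18.0 and 16.8 FPKM in 4H replicates 1, 2 and 3. The groups overlapped, with a log2 difference of -0.09 whose 95% confidence interval ran from -0.22 to 0.04 (adjusted p = 0.238 from limma). Ccn5 (ENSMUSG00000027656, chr2:163820861-163833146), which encodes the member without the C-terminal domain of the family, was the lowest of the 10 genes. It was at 0.562, 0.232 and 0.490 FPKM in CON replicates 1, 2 and 3, against 0.161, 0.296 and 0.342 FPKM in 4H replicates 1, 2 and 3, which overlapped (two-sided exact permutation test, p = 0.3). Its mean lay below the filter, and without a filter its adjusted p was 0.269 (limma). Ccn6 was lower still, at 0.0957 to 0.201 FPKM in the CON libraries and 0.119 to 0.180 FPKM in the 4H libraries.

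As a family, the summed FPKM of Ccn1 to Ccn6 was 84.2, 92.9 and 92.1 in the CON libraries and 231.9, 238.9 and 231.1 in the 4H libraries, 2.61 times as high in the mean (two-sided exact permutation test, p = 0.1, the smallest possible). Ccn1 made up most of the sum in every library, 66.3% ± 1.99 in the CON group and 70.8% ± 1.20 in the 4H group (SD, n = 3). The share of Ccn2 went from 7.99% ± 0.43 to 20.6% ± 1.39, and that of Ccn4, whose own level overlapped between the groups, from 21.2% ± 2.17 to 7.63% ± 0.38. The family of the unstretched cells was thus led by Ccn1 and Ccn4, and that of the stretched cells by Ccn1 and Ccn2.

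**Figure D3:**
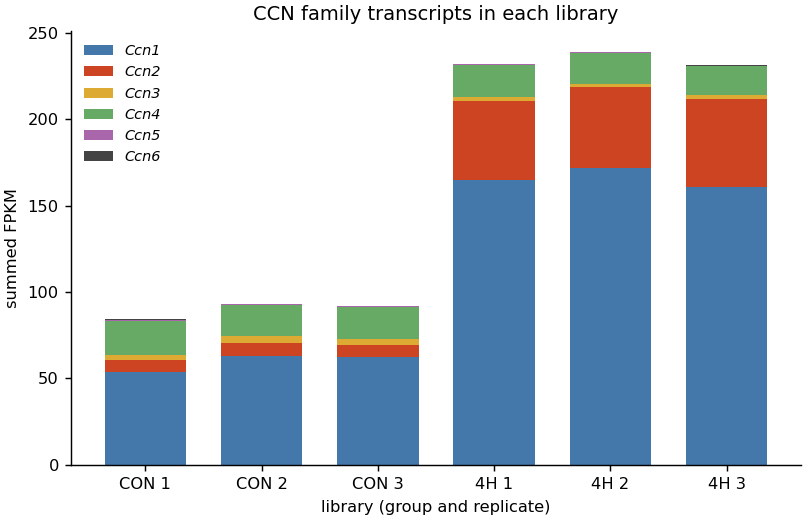
Summed FPKM of Ccn1 to Ccn6 (stacked bars from 0) in each of the 6 libraries. The 3 4H bars reach 231.1 to 238.9 and the 3 CON bars 84.2 to 92.9, and the segments of Ccn1 and Ccn2 grow while that of Ccn4 stays between 16.8 and 19.9.

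Ankrd1 (ENSMUSG00000024803, chr19:36111961-36120099, minus strand) encodes a muscle ankyrin repeat protein that binds titin in the sarcomere and also enters the nucleus. It was at 147.8, 152.8 and 168.8 FPKM in CON replicates 1, 2 and 3, against 408.2, 361.8 and 385.2 FPKM in 4H replicates 1, 2 and 3. All 4H libraries were far above all CON libraries, and 4H replicate 1 was the highest. The log2 fold change was 1.30 (95% confidence interval 1.16 to 1.43, adjusted p = 1.16e-06 from limma), at rank 161 of the rises. Ankrd1 was already among the most abundant transcripts of unstretched cells, where 96.9% of the genes tested had a lower mean FPKM. Of the other muscle ankyrin repeat genes, Ankrd2 was listed at 0 in all 6 libraries, and Ankrd23 was at 0.590 to 1.01 FPKM in CON and 0.656 to 0.876 FPKM in 4H libraries, which overlapped (adjusted p = 0.748 from limma).

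Amotl2 (ENSMUSG00000032531, chr9:102716672-102733418) encodes an angiomotin, a junction protein that binds YAP and holds it in the cytoplasm. It was at 31.0, 30.9 and 32.0 FPKM in CON replicates 1, 2 and 3, against 29.1, 33.2 and 29.0 FPKM in 4H replicates 1, 2 and 3. The 4H libraries lay on both sides of the CON libraries. The log2 difference was -0.04 with a 95% confidence interval of -0.17 to 0.09 (adjusted p = 0.569 from limma). Of the other angiomotins, Amotl1 was lower in all 4H libraries and was not called (log2 difference -0.12, adjusted p = 0.0537 from limma), but it was called with no filter (adjusted p = 0.0479). Amot fell from 6.03 ± 0.47 to 4.74 ± 0.47 FPKM (SD, n = 3; log2 fold change -0.32, adjusted p = 0.0221 from limma), a call that was lost without CON replicate 2 (adjusted p = 0.0593), CON replicate 3 (0.0778) or 4H replicate 2 (0.0633).

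Ajuba (ENSMUSG00000022178, chr14:54567472-54577558) encodes a LIM protein of junctions and adhesions that binds and restrains the LATS kinases. It was at 26.2, 24.8 and 26.8 FPKM in CON replicates 1, 2 and 3, against 25.0, 24.5 and 23.2 FPKM in 4H replicates 1, 2 and 3, which overlapped. The log2 difference was -0.10 with a 95% confidence interval of -0.20 to 0.01 (adjusted p = 0.137 from limma). Its closest relatives Limd1 and Wtip were not called either (adjusted p = 0.776 and 0.179). Of the 6 LIM genes of this list, 2 were called higher (33.3%, against 22.6% of all genes tested) and 1 lower (16.7%, against 24.1%), shares not far from those of all genes. Lpp, a focal adhesion protein, rose from a mean of 20.5 ± 0.35 to 32.2 ± 0.44 FPKM (log2 change 0.64, adjusted p = 4.49e-06), Zyx rose by a log2 change of 0.28 (adjusted p = 0.000316), and Trip6 fell from 37.9 ± 0.49 to 29.8 ± 1.61 FPKM (log2 change -0.34, adjusted p = 0.000456; SD, n = 3, limma for all).

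Axl (ENSMUSG00000002602, chr7:25757273-25788705, minus strand), a receptor tyrosine kinase for the ligand GAS6, was the most abundant of the 10 genes in the CON group. It was at 178.3, 187.8 and 183.9 FPKM in CON replicates 1, 2 and 3, against 200.2, 204.1 and 206.0 FPKM in 4H replicates 1, 2 and 3. The groups did not overlap, and the gap between them was slightly wider than the range within the CON group. The log2 fold change was 0.15 (95% confidence interval 0.08 to 0.22, adjusted p = 0.00351 from limma). Among its sister receptors and their ligands, Mertk was the 1 gene of the 5 on the list past the fold threshold, which 2.61% of all genes tested passed upward and 1.28% downward. Mertk, a receptor used in the uptake of dying cells, was at 2.05, 1.82 and 2.09 FPKM in CON replicates 1, 2 and 3, against 7.83, 7.22 and 7.43 FPKM in 4H replicates 1, 2 and 3 (log2 fold change 1.69, adjusted p = 1.61e-06 from limma), while Tyro3, Gas6 and Pros1 were not called (adjusted p = 0.257, 0.209 and 0.970).

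Crim1 (ENSMUSG00000024074, chr17:78200248-78376592), a membrane protein with the cysteine-rich repeats of chordin, was at 11.0, 11.2 and 11.7 FPKM in CON replicates 1, 2 and 3, against 12.7, 12.0 and 12.2 FPKM in 4H replicates 1, 2 and 3. All 4H libraries were above all CON libraries, by a small margin. The log2 difference of 0.12 (95% confidence interval 0.00203 to 0.24) was not called (adjusted p = 0.0887 from limma), and it was called with the libraries rescaled to TPM (adjusted p = 0.0414). An exon of Crim1 overlaps with Fez2 on the other strand, which was at 29.2 ± 0.92 in CON and 33.5 ± 1.96 FPKM in 4H libraries (SD, n = 3), and whether its reads entered the FPKM of Crim1 was not tested. Of the 6 genes of the chordin-like list, 3 were tested, and Bmper, another BMP-binding protein, rose from 9.01 ± 0.42 to 11.5 ± 0.61 FPKM (log2 change 0.33, adjusted p = 0.00298 from limma).

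Ordered by mean FPKM, the 10 genes ran in the CON group from Axl (183.3) and Ankrd1 (156.4) over Ccn1 (59.6), Amotl2 (31.3), Ajuba (25.9), Ccn4 (19.0), Crim1 (11.3), Ccn2 (7.18) and Ccn3 (3.43) to Ccn5 (0.428). In the 4H group Ankrd1 (385.1) stood above Axl (203.4), and Ccn2 (48.1) stood above Amotl2, Ajuba, Ccn4 and Crim1. Neighbours in either order did not overlap in their libraries. As for sequence shared with other genes, 0.14% of the 75-base stretches of Ajuba transcripts, and 0% of those of the other 9 genes, recur in transcripts of another gene.

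**Figure D4:**
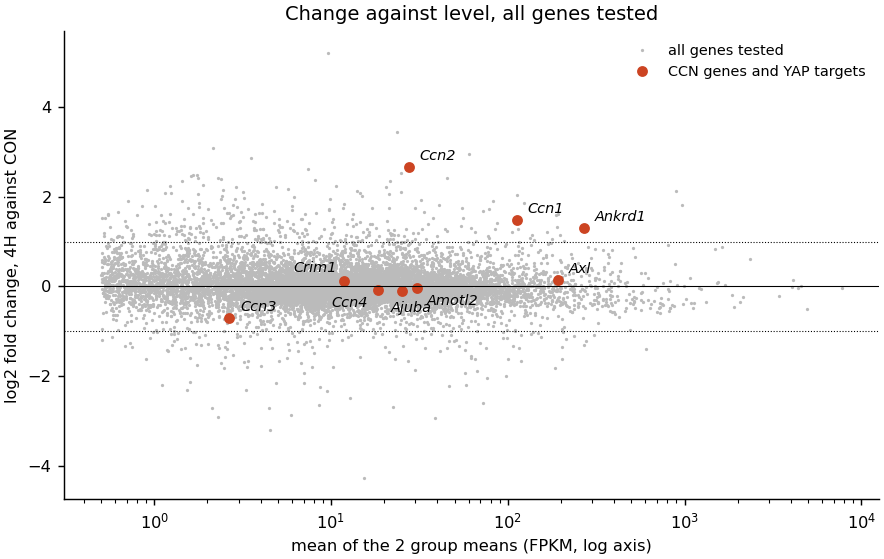
Log2 fold change of 4H against CON (vertical axis) against the mean of the group means in FPKM (horizontal log axis) for the 11593 genes tested (grey) and the 9 tested CCN genes and YAP targets (red, named), with dotted lines at log2 fold changes of 1 and -1. Ccn2, Ccn1 and Ankrd1 lie above the upper line, and Ccn3 lies between 0 and the lower line.

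The other genes of the pathway were taken from a widely used signature of YAP and TAZ target genes of cancer cells, which also holds Ccn1, Ccn2, Ankrd1, Amotl2, Axl and Crim1. Of its 16 further genes, 15 were tested, 11 were called higher and 2 lower, and 2 were not called (limma, with 22.6% and 24.1% of all genes tested called higher and lower). Their median log2 fold change was 0.37, against -0.01 for all genes tested. Igfbp3 was the 1 gene of the 15 that was differentially expressed and higher (6.67%, against 2.61% of all genes tested). Igfbp3, which binds insulin-like growth factors, was at 0.549, 0.557 and 0.615 FPKM in CON replicates 1, 2 and 3, against 1.66, 2.33 and 2.79 FPKM in 4H replicates 1, 2 and 3 (log2 change 1.34, limma adjusted p = 0.000293). Tgfb2, a TGF-beta ligand, rose from 1.26 ± 0.11 to 2.67 ± 0.32 FPKM (log2 change 0.84, adjusted p = 0.000502), and the kinase Nuak2 from 2.82 ± 0.28 to 4.81 ± 0.21 FPKM (log2 change 0.68, adjusted p = 0.000455; SD, n = 3, limma for both).

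Gadd45a, a stress and growth arrest gene, moved the other way. It was at 82.0, 72.8 and 77.1 FPKM in CON replicates 1, 2 and 3, against 16.6, 18.1 and 13.8 FPKM in 4H replicates 1, 2 and 3. It was the 1 gene of the list that was differentially expressed and lower (log2 fold change -2.23, adjusted p = 7.94e-07 from limma), where 1.28% of all genes tested were. The second gene called lower was Ccdc80, a matrix protein (log2 fold change -0.41, adjusted p = 0.00287), and F3 and Ptpn14 were not called (adjusted p = 0.961 and 0.215).

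**Figure D5:**
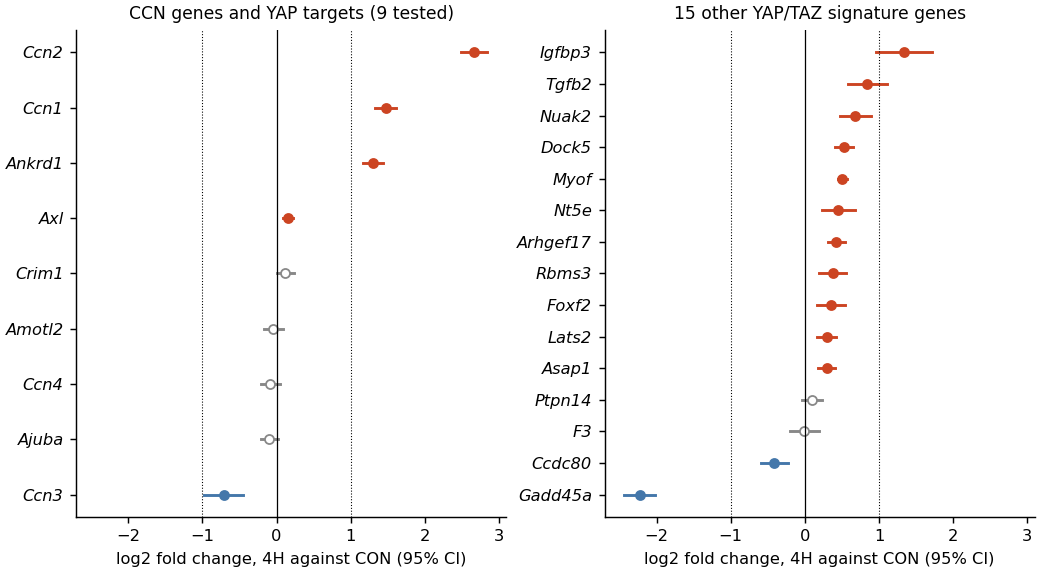
Log2 fold change of 4H against CON with its 95% confidence interval (limma) for the 9 tested CCN genes and YAP targets (left) and the 15 other tested signature genes (right). Filled red and blue points were called higher and lower at an adjusted p of at most 0.05 and open grey points were not called, and dotted lines mark log2 fold changes of 1 and -1, which Ccn2, Ccn1, Ankrd1, Igfbp3 and Gadd45a pass.

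Among the 20 genes of the Hippo list, kinases, scaffolds, coactivators and TEAD partners, 9 were called higher (45.0%, against 22.6% of all genes tested) and 4 lower (20.0%, against 24.1%), with a median log2 fold change of 0.19, against -0.01 for all genes tested. With no filter the calls of Stk3 and Wwc1, both Hippo pathway activators, among the 9 (adjusted p = 0.0649 and 0.0663) and of Vgll3 among the 4 (0.0944) were lost. None of the 20 was past the fold threshold, which 2.61% and 1.28% of all genes tested passed upward and downward. Lats2, among the 9, is on both lists and was also counted above among the signature genes called higher. Yap1 itself was at 34.2 ± 0.36 in CON and 34.5 ± 0.75 FPKM in 4H libraries (SD, n = 3; adjusted p = 0.768 from limma), while Wwtr1, which encodes TAZ, rose from 25.8 ± 1.32 to 35.5 ± 1.29 FPKM (log2 change 0.45, adjusted p = 0.000157) and Tead1 from 23.1 ± 1.89 to 34.6 ± 2.92 FPKM (log2 change 0.58, adjusted p = 0.000465). Of the other TEAD genes, Tead3 fell (log2 change -0.22, adjusted p = 0.0212) and Tead2 and Tead4 were not called (adjusted p = 0.802 and 0.0713). The other genes called lower were the kinase adaptor Mob1a (log2 change -0.37, adjusted p = 1.78e-05), Nf2, an upstream activator of the LATS kinases (-0.15, adjusted p = 0.0116), and the TEAD cofactor Vgll3 (-0.31, adjusted p = 0.0497; limma for all).

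Of 13 genes of cell-surface receptors described for CCN proteins, 10 were tested, of which 7 were called higher (70.0%, against 22.6% of all genes tested) and 2 lower (20.0%, against 24.1%). Their median log2 fold change was 0.46, against -0.01 for all genes tested. Itgb3, the β chain of the vitronectin receptor, to which CCN1 and CCN2 bind, was at 2.29, 2.43 and 2.14 FPKM in CON replicates 1, 2 and 3, against 14.0, 13.5 and 14.3 FPKM in 4H replicates 1, 2 and 3 (log2 fold change 2.38, adjusted p = 1.37e-07 from limma). Its partner Itgav rose less, by a log2 change of 0.26 (adjusted p = 0.00107), and Itgb5, the alternative β chain, had a log2 change of -0.60 (called lower, adjusted p = 0.000114). Itga6, the laminin receptor chain, rose from 22.8 ± 0.49 to 39.5 ± 1.37 FPKM (log2 change 0.78, adjusted p = 2.70e-06), and Itgb1, on which the study centres, rose by a log2 change of 0.30 (adjusted p = 6.24e-05). Notch1, which CCN3 binds, rose from 2.00 ± 0.12 to 3.80 ± 0.30 FPKM (log2 change 0.78, adjusted p = 0.000247; SD, n = 3, limma for all).

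The genes whose levels followed Ccn1 and Ccn2 most closely were sought among the 8507 tested genes with a symbol and a mean of at least 5 FPKM, by the distance between log2 values centred on the mean of the 6 libraries. Nearest to Ccn1 were Phlda1 (28.7 ± 0.87 and 83.6 ± 3.20 FPKM in the CON and 4H groups), Ptk2b (5.10 ± 0.53 and 15.3 ± 0.79 FPKM) and Sgk1 (47.0 ± 0.79 and 125.9 ± 3.40 FPKM), at distances of 0.147, 0.162 and 0.186. Nearest to Ccn2 were Krt13 (1.75 ± 0.30 and 13.1 ± 0.73 FPKM), Tnc (14.0 ± 0.93 and 76.3 ± 1.42 FPKM) and Il33 (6.98 ± 0.50 and 42.9 ± 0.92 FPKM), at distances of 0.127, 0.356 and 0.391 (SD, n = 3). With 2 groups of 3 libraries, such a likeness rests mainly on the size of the difference between the groups.

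Markers of the cells were read beside these values. Myoblast genes were well above the filter, with Des (70.4 to 91.6 FPKM), Itga7 (53.7 to 106.2 FPKM) and Chrna1 (20.5 to 35.9 FPKM) the more abundant of them, and 1 of the 8 markers, Pax7, was below it. The summed FPKM of these 8 markers was 194.7 to 201.4 in the CON group and 284.1 to 298.5 in the 4H group, but the markers went both ways, with 6 of the 7 tested called higher (85.7%, against 22.6% of all genes tested) and 1 lower (14.3%, against 24.1%). Myod1, the myogenic regulator, rose from 5.13 ± 0.57 to 18.2 ± 0.74 FPKM (SD, n = 3; log2 fold change 1.74, adjusted p = 1.56e-06 from limma), and Myf5, a related myogenic regulator, fell from 15.8 ± 0.85 to 9.82 ± 1.13 FPKM (log2 change -0.67, adjusted p = 0.000346). Markers of differentiated muscle were under the filter in 7 of 8 cases, with sums of 0.917 to 1.34 FPKM in CON and 1.72 to 2.41 FPKM in 4H libraries, and Mymx and Actn2 were listed at 0 in all 6. The 1 tested, the fusion gene Mymk, rose from 0.525 ± 0.16 to 1.01 ± 0.12 FPKM (SD, n = 3; log2 change 0.57, adjusted p = 0.0194 from limma). Below the filter, Ttn and Tnnt3 were higher and Myog was lower in all 4H than in all CON libraries, at means of at most 0.522 FPKM. All 5 endothelial markers were under the filter, with sums of 0.057 to 0.112 in CON and 0.146 to 0.261 FPKM in 4H libraries. Of these, Kdr (means 0.0658 in CON and 0.157 FPKM in 4H) did not overlap between the groups, and Tie1 and Emcn were at 0 in all 6. All 5 epithelial markers were under the filter too, with sums of 0.0401 to 0.148 in CON and 0.415 to 0.826 FPKM in 4H libraries, where Krt8 (means 0.0146 and 0.304 FPKM) and Cldn4 (0.0103 and 0.177 FPKM) did not overlap between the groups and Epcam was at 0 in all 6. Of the 6 leukocyte markers, Ptprc and Adgre1 were listed at 0 in all 6 libraries, while Cd68 rose from 7.57 ± 0.89 to 16.4 ± 1.29 FPKM (log2 change 1.07, adjusted p = 4.11e-05 from limma), and Csf1r was at 0, 0 and 0.0272 FPKM in CON replicates 1, 2 and 3, against 1.48, 0.966 and 0.792 FPKM in 4H replicates 1, 2 and 3. The summed FPKM of the 6 was 6.73 to 8.51 in the CON group and 16.5 to 18.6 in the 4H group. The fibroblast markers, 5 of 6 above the filter, summed to 151.4 to 158.1 FPKM in CON and 122.2 to 125.5 FPKM in 4H libraries, a sum made up mostly of Col1a2, a collagen chain. Col1a2 fell from 123.1 ± 2.52 to 92.6 ± 1.05 FPKM (log2 change -0.41, adjusted p = 1.28e-05) and Pdgfrb fell (log2 change -0.26, adjusted p = 0.00195), while Pdgfra rose from 3.15 ± 0.29 to 5.08 ± 0.32 FPKM (log2 change 0.61, adjusted p = 0.000753; SD, n = 3, limma for all). Col1a1 and Dcn were not called (adjusted p = 0.57 and 0.15), though all 4H libraries lay above all CON libraries for Dcn. Whether any of these markers bears on the CCN genes was not tested.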

How the data were processed

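RNA-seq of 3 CON and 3 4H libraries of C2C12 cells was used. The libraries titled 4H1, 4H3 and 4H4 are called 4H replicates 1, 2 and 3, by the replicate numbers in their descriptions. The authors deposited FPKM values, 1 column per library, with no count of fragments, so depth and counting error are unknown and precision rests on 3 libraries a group. FPKM summed to 395790 to 397260 per CON library and 385146 to 387516 per 4H library. Libraries were poly(A)-selected and strand-specific. The genome build is mm10 per the submitters' processing notes. The aligner was not given in the sources used here, nor were the counting tool, the use of strand and the annotation. Coordinates of genes and overlaps came from GENCODE M21 (GRCm38), and promoter sequences from RefSeq (GRCm38.p6).

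Genes were compared with limma 3.58.1 in R 4.3.3 (lmFit, eBayes with a trend) on log2(FPKM + 0.5), two-sided, at a mean of at least 0.5 FPKM, with Benjamini-Hochberg adjustment over all 11593 genes tested. This scale understates changes of low genes. The thresholds, a log2 fold change of 1 or more in size and an adjusted p of at most 0.05, are also those of the study, whose DESeq2 takes counts and was not run. The fit was tested on simulated data in which few genes changed, so that test does not cover data with as many called genes as here. Single values were compared with exact permutation tests in SciPy 1.17.1. Values were tabulated and plotted in Python 3.11.15, pandas 2.3.3 and matplotlib 3.10.9.

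The 10 genes and the gene lists were chosen with earlier results of these data known. Genes named beside them were the differentially expressed list genes, the 2 other called genes with the largest change in each list that was no marker list, Itgb1, and the 3 genes nearest to Ccn1 and to Ccn2. Ankrd2, Ankrd23, Amotl1, Limd1, Wtip, Zyx, Tyro3, Gas6, Pros1, Fez2, Gm15270, Ccn6, Ccdc80, F3, Ptpn14, Pax7, Yap1, Itgav, Itgb5, Des, Itga7, Chrna1, Ptprc, Adgre1, Myf5, Col1a1, Col1a2, Pdgfra, Pdgfrb, Dcn, Mymk, Mymx, Actn2, Ttn, Tnnt3, Myog, Tie1, Emcn, Krt8, Cldn4, Epcam, Tead2, Tead3, Tead4, Mob1a, Nf2, Vgll3, Stk3, Wwc1, Kdr and Lats2 were named after their values were seen. Alternatives were other pseudocounts and filters, 3 other scalings (TPM, quantile and median of ratios), array weights or no trend in limma, a replicate block, leaving out each library, and a fold threshold on the ratio of means.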

Additional observations from a re-analysis of the deposited data

How the results depend on the processing

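Of 152 values of the 9 tested genes over the alternatives, 151 kept their direction and their side of an adjusted p of 0.05, and the exception was Crim1, called with rescaling to TPM (log2 fold change 0.16, adjusted p = 0.0414 from limma). Over all alternatives the log2 fold change ran from 2.59 to 2.75 for Ccn2, from 1.40 to 1.51 for Ccn1, from 1.26 to 1.35 for Ankrd1, from 0.13 to 0.20 for Axl and from -0.82 to -0.61 for Ccn3, and all 16 values of the summed CCN family and of the ratio of Ccn2 to Ccn1 moved by less than 1 SD. Ccn3 was not tested where the filter was set to 5 FPKM, so 0 of the 10 genes were then called lower. That filter, which tests fewer genes, left 152 of all genes differentially expressed and higher and 93 lower, in place of 302 and 148, and among the other signature genes 6 called higher in place of 11, and 0 differentially expressed and higher. Rescaling to TPM gave 532 of all genes differentially expressed and higher. Of the other signature genes, 2 in place of 1 were differentially expressed and higher with rescaling to TPM, a pseudocount of 0.1 or the ratio of mean FPKM. The second was Tgfb2, at a ratio of mean FPKM of 2.11. Its log2 fold change was 0.84 with the pseudocount of 0.5 and at most 1.02 over the alternatives. Replicate numbers in the descriptions are shared between the groups, but deviations of same-numbered libraries correlated at 0.0250, -0.0929 and -0.126 and 0 of the 6 libraries correlated best with their own number, so they were not taken as pairs. By title, 4H replicate 2 (4H3) shares its number with CON replicate 3 (C3), and these libraries were each the best match of the other. So were CON replicate 2 (C2) and 4H replicate 3 (4H4), which share no number by title or description. The titles share only 2 numbers, and a block by title was not run. With a replicate block 303 genes were differentially expressed and higher and 149 lower, and no call of the 9 genes changed. Without counts, low genes such as Ccn5 cannot be given a counting error.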
